A study of Mus musculus with 6 samples.

Results

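The 10 genes described here are the core circadian clock and one of its output genes: Per1, Per2, Per3, Cry1, Cry2, Arntl (which encodes BMAL1), Clock, Nr1d1, Nr1d2 and Dbp. They were chosen by symbol from the 31053 features of a single-cell RNA-seq series of mouse cornea, and each symbol matched 1 feature. The series holds 6 libraries from naive mice, all labelled female, whose strain background is 129S2–C57BL/6-mixed. Whole cornea, cut in front of the limbus, gave 4 libraries: wild type (WT) and KO at 2 months of age, and WT and KO at 6 months. KO mice carry a gene-trap allele of the miR-183/96/182 microRNA cluster (miR-183C GT/GT), and a gene-trap allele acts in every cell rather than in 1 cell type. At 6 months, 1 WT and 1 KO library were also made from cornea-resident immune cells (CRIC), pulled out with magnetic beads against CD45, which marks cells of the blood lineage. Collagenase A with DNase I freed the cells from all tissue, and dead cells were removed. Each group holds 1 library, and the labels do not name separate animals, so p-values measure only the spread between these samples, which may be technical. The hour of harvest is not given in the sources used here, so no clock phase was assigned to any library, and harvest time cannot be told apart from age, genotype or preparation.

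In the mammalian clock, CLOCK and BMAL1 bind E-box sequences and switch on the Per and Cry genes, whose proteins feed back and shut CLOCK and BMAL1 off. CLOCK and BMAL1 also drive Nr1d1 and Nr1d2, which encode the repressors REV-ERBα and REV-ERBβ, and Dbp, which encodes a D-box-binding activator that acts on further genes such as Per3. REV-ERB proteins repress Arntl, so that Arntl transcripts run roughly opposite to those of Dbp, Nr1d1 and the Per genes over the day. The cornea is a classical site of a peripheral clock, where the timing of epithelial cell division follows the day.

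The sequences below show where the clock's own regulators could bind these genes and where the microRNAs of the trapped cluster could pair with them. Promoter windows were taken from RefSeq on build GRCm38.p6, which held a promoter (250 bases before to 50 after the start site) for 9 of the 10 genes, all but Per2, in 13 windows. The letters CACGTG (E-box), CACGTT (E′-box), TTATGTAA or TTACGTAA (D-box) and AGGTCA (the half-site bound by REV-ERB and ROR) were searched on both strands, and 8 of the 13 windows held at least 1. Of 32851 mouse promoters of the same 300 bases, 7.15% held CACGTG, 4.68% CACGTT, 1.06% either D-box form and 16.3% AGGTCA. Among the 9 genes, 2 held CACGTG, 3 CACGTT, 1 a D-box and 4 AGGTCA in at least 1 window, and the Dbp window held none of them. Some genes had more than 1 window, so these counts per gene are not on the same basis as the shares per promoter. A match is a description of the letters only. In the stretches that follow, capitals mark the motif, with AACGTG being CACGTT read on the other strand.
Per1 (chr11:69098771-69098800, plus strand, E-box): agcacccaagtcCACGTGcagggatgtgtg
Cry1 (chr10:85185097-85185145, minus strand, E′-box and E-box): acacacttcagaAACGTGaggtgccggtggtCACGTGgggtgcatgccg
Nr1d1 (chr11:98775388-98775417, minus strand, E′-box): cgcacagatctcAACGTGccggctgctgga
Per3 (chr4:151044804-151044882, minus strand, 2 D-boxes): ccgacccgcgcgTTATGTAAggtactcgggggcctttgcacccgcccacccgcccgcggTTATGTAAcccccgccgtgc

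The 3 microRNAs of the cluster trapped in the KO mice lie together on chromosome 6 (minus strand, GRCm38.p6), and the capitals mark the seed, bases 2 to 8, with which a microRNA pairs to its targets.
miR-183-5p (chr6:30169711-30169732): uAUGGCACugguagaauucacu
miR-96-5p (chr6:30169506-30169528): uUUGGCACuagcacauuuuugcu
miR-182-5p (chr6:30165962-30165986): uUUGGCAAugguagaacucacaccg
No microRNA of the cluster is a feature of the matrices, so the KO label could not be checked from them. Seed matches were searched in the 3′ untranslated region of 1 annotated transcript per gene, the one with the longest such region. Of the 10 genes, 4 held a match to a seed and the other 6 held none. The regions were 1889 to 6831 bases long in the 4 genes and 288 to 2224 bases in the other 6. The share of all genes with such a match was not computed. The capitals below mark the match, and all sites lie on the minus strand of GRCm38.
Per2, miR-96-5p (chr1:91417526-91417552): tctttccagtGTGCCAAtgtcctctgg
Cry2, miR-183-5p (chr2:92405670-92405696): aaggtgtggtGTGCCATttgtgtgtgc
Clock, miR-182-5p (chr5:76216431-76216457): aaagagtataTTGCCAAatgctaacaa
Clock, miR-182-5p (chr5:76210387-76210413): gtttacccctTTGCCAAaactagaaat
Nr1d2, miR-96-5p (chr14:18205460-18205486): tggcatgtttGTGCCAAgtccactttt

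The libraries held 9827933 to 117613142 unique molecular identifiers (UMIs, 1 per captured RNA molecule) and 62217 cells passed the filters, 3345 to 15069 per library, with a median of 1156 to 5499 UMIs per cell. Cells were clustered without the 10 clock genes, and 60182 fell into 4 classes named from marker genes: keratocyte-like (stromal cells, led by collagens, Lum and Kera), epithelial-like, superficial epithelial-like (the outermost cells) and immune-like. A library held 903 to 11102, 464 to 3495, 120 to 1379 and 186 to 2642 cells of these classes, and pairs of libraries shared 2 to 32 cell barcodes. A pair of libraries stood apart. The library labelled 2-month KO held 3077 UMIs of Y-linked genes, against 0 to 2 in the other libraries, although all mice are labelled female. The 6-month KO library gave 2111 of the 2181 cells (96.8%) of a keratocyte-like cluster led by Saa3, Chil1 and Mmp3, genes of inflammation and matrix breakdown.

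Keratocyte-like cells carried far more Dbp and Nr1d1 RNA than epithelial-like cells of the same library, and far less Arntl. Levels are counts-per-million values (CPM), the UMIs of a gene scaled to the total of a class summed over its cells, given in the order 2-month WT, 2-month KO, 6-month WT, 6-month KO, CRIC WT and CRIC KO. Dbp stood at 397, 326, 336, 222, 266 and 251.1 CPM in keratocyte-like cells and at 45.4, 70.5, 47.9, 40.3, 21.9 and 27.6 CPM in epithelial-like cells. The lowest keratocyte-like level lay above the highest epithelial-like one, as it did for 3 of the 10 members and 33.7% of all genes, and the within-library ratio ran from 4.62 to 12.1 with a median of 7.87. Nr1d1 stood at 170, 120, 247, 310, 246 and 208 CPM in keratocyte-like cells and at 21.3, 26.0, 30.2, 27.9, 36.4 and 32.5 CPM in epithelial-like cells, again without overlap. Its within-library ratio was 4.62 to 11.1.

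Arntl, the partner of Clock, had the opposite order. It stood at 5.58, 5.29, 4.93, 9.36, 9.69 and 7.75 CPM in keratocyte-like cells and at 24.7, 23.9, 35.0, 23.8, 29.9 and 22.6 CPM in epithelial-like cells. Each of the 6 libraries had less Arntl in keratocyte-like cells, at 0.141 to 0.394 times the epithelial-like level, and the classes did not overlap, as for 1 of the 10 members and 19.2% of all genes in this direction. The CRIC values for keratocyte-like cells rest on 17 and 34 UMIs. Clock itself differed less, with 82.1 to 124 CPM in keratocyte-like and 122 to 164 CPM in epithelial-like cells, ranges that overlap.

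**Figure D1:**
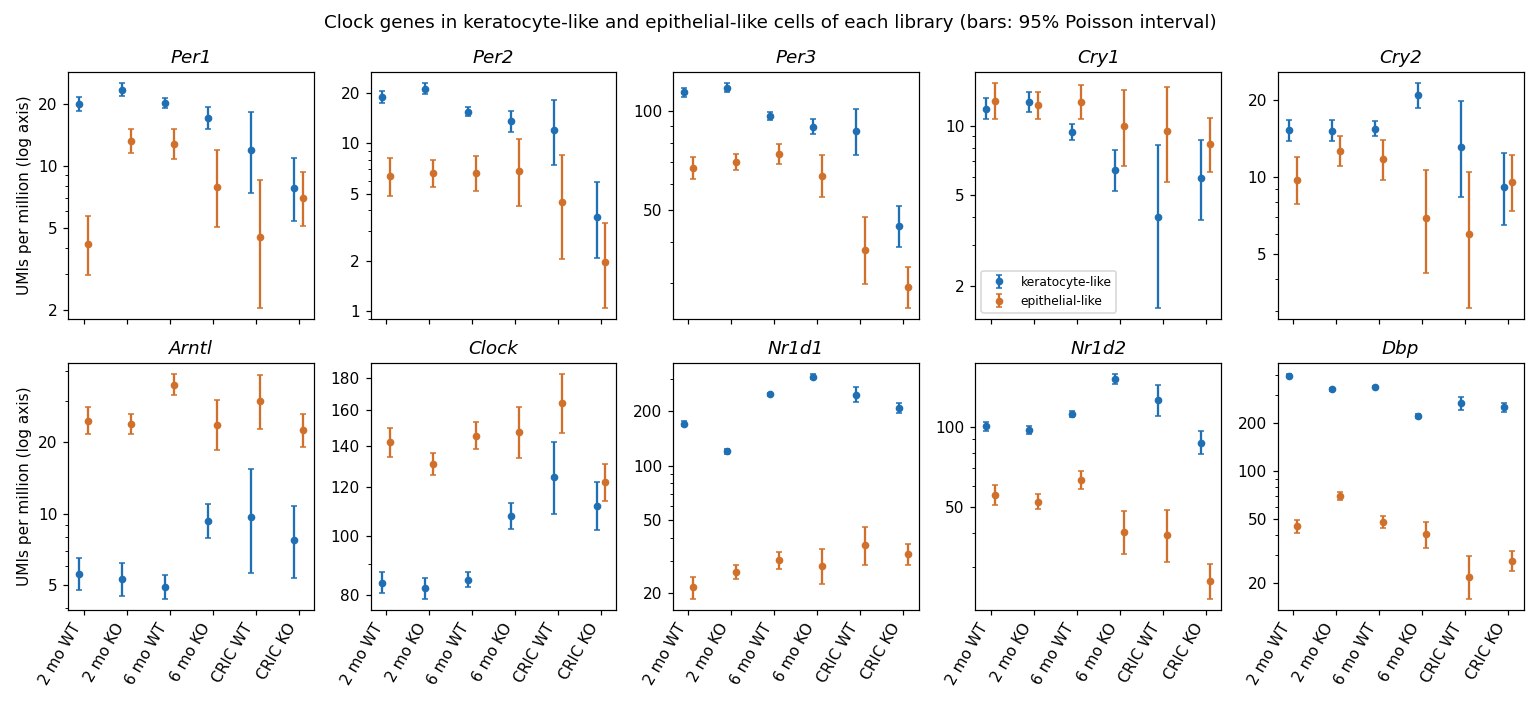
CPM (log axis) of each clock gene in keratocyte-like and epithelial-like cells of the 6 libraries. Bars are 95% exact Poisson intervals, which cover counting error only. Over all libraries Dbp, Nr1d1 and Nr1d2 lie higher in keratocyte-like cells without overlap, and Arntl lies lower without overlap. Within each library the points of Per1, Per2 and Per3 also lie higher and that of Clock lower, but their ranges over libraries overlap. The Cry genes go both ways.

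In edgeR's quasi-likelihood test with the library as a block (6 libraries, 3 classes), 7 of the 10 clock genes differed between keratocyte-like and epithelial-like cells, 5 higher and 2 lower in keratocyte-like cells. Of all 13414 genes tested 68.3% were called, 34.9% higher and 33.4% lower, so the count is near the background. Dbp, Nr1d1 and Arntl, 3 of the 10, were called with a log2 difference beyond 2, as were 29.1% of all genes. Dbp was higher by 2.55 ± 0.19 on the log2 scale (SE, edgeR adjusted p = 2.09e-12) and Nr1d1 by 2.51 ± 0.21 (adjusted p = 3.59e-11), while Arntl differed by -2.29 ± 0.23 (adjusted p = 1.09e-09). Nr1d2, the sister repressor of Nr1d1, was higher by 0.96 ± 0.18 (edgeR adjusted p = 3.84e-05) and Clock differed by -0.86 ± 0.19 (adjusted p = 0.000184).

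The Per and Cry genes, the negative arm of the loop, split. Per2 was higher in keratocyte-like cells by 1.08 ± 0.24 log2 (edgeR adjusted p = 0.000246) and Per1 by 0.78 ± 0.24 (adjusted p = 0.00605). Per3 (0.37 ± 0.17, edgeR adjusted p = 0.057), Cry1 (-0.65 ± 0.30, adjusted p = 0.0587) and Cry2 (0.29 ± 0.23, adjusted p = 0.278) did not pass. Per3 passed with another scaling (0.52, adjusted p = 0.00598 with edgeR's RLE factors), which moved the median of all genes from 0.01 to 0.14. It also passed with DESeq2, without clusters of low depth and without the cluster led by Saa3, Chil1 and Mmp3. Per3 passed too without 6-month WT, 6-month KO or CRIC KO, and did not under the other alternatives. Cry1 passed only with no count filter and with at least 1000 UMIs per cell, and Cry2 only without CRIC KO. Without the 2-month WT library Per1 did not pass (0.49, adjusted p = 0.0923). Per3 levels were 44.7 to 118 CPM in keratocyte-like and 29.2 to 74.0 CPM in epithelial-like cells, lowest in both classes in the CRIC KO library. Without the library labelled 2-month KO the same 7 genes were called, beside 63.6% of all genes. Without the 6-month KO library 8 were called, those 7 among them, beside 67.7%.

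Markers of the other class were low but present in both classes. Summed keratocyte markers in epithelial-like cells reached 0.0758% to 0.841% of their level in keratocyte-like cells. Epithelial markers in keratocyte-like cells reached 0.172% to 0.538% without Aldh3a1, a crystallin-like enzyme abundant in both, and 6.56% to 10.4% with it. Reads of Nr1d1 and Thra, and of Dbp and Sphk2, come from overlapping genes on opposite strands, and Per3 lies within Camta1 on the same strand. Whether the authors' counting used strand is not given in the sources used here.

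**Figure D2:**
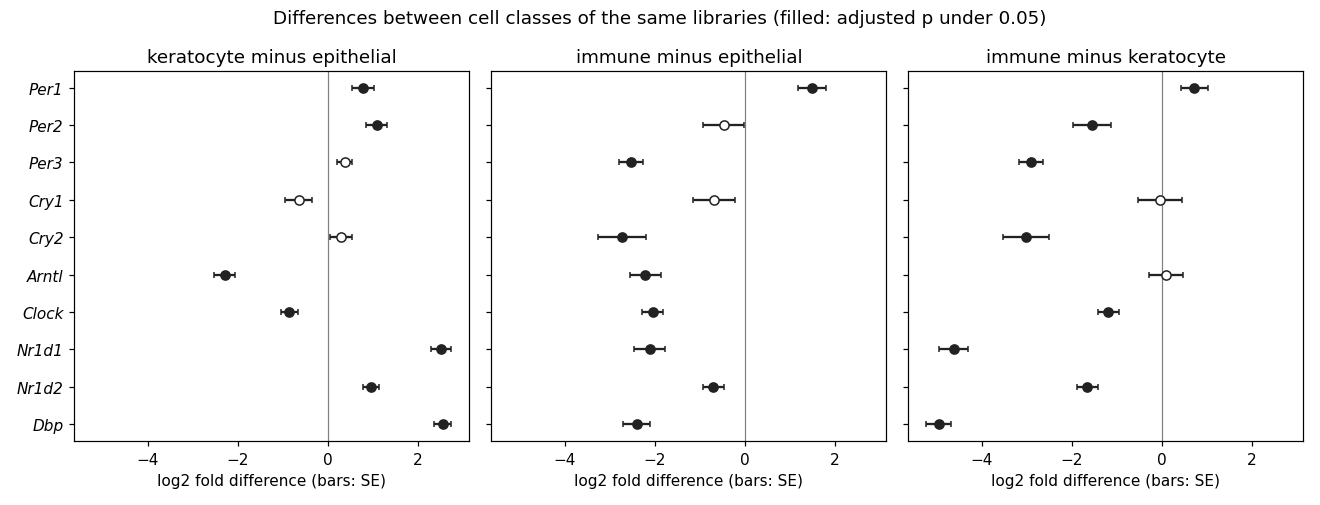
Log2 difference of each clock gene between 3 pairs of cell classes of the same libraries, with SE bars and filled points where the edgeR adjusted p is under 0.05. Dbp and Nr1d1 lie beyond 2 above epithelial-like cells in keratocyte-like cells, Arntl lies beyond 2 below them, and Per1 is the only gene called higher in immune-like cells.

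The ratio of 2 genes' UMIs within a class does not depend on how libraries are scaled. UMIs of a 3′ assay are not scaled by gene length, so a ratio is compared between libraries and classes and not read as a ratio of activities. The keratocyte-like ratio of Dbp to Arntl was 71.2 (95% exact interval 61.2 to 83.3) in 2-month WT, 61.5 (52.7 to 72.2) in 2-month KO and 68.2 (60.7 to 76.8) in 6-month WT. In the other 3 libraries it was 23.7 (20.1 to 28.2) in 6-month KO, 27.5 (16.97 to 47.6) in CRIC WT and 32.4 (23.03 to 47.0) in CRIC KO. The 6 values thus fell into a high and a low set whose intervals did not overlap, and the low set held both CRIC libraries and the 6-month KO cornea. Without the cluster led by Saa3, Chil1 and Mmp3, the 6-month KO ratio was 30.9 (24.9 to 38.8), still below the 3 high values. The sets were drawn from these values, and the ratio of Nr1d1 to Arntl in the same cells did not keep them. That ratio was 30.6, 22.6, 50.1, 33.1, 25.4 and 26.8 in the order given above, lowest in 2-month KO and highest in 6-month WT.

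Epithelial-like cells of the same libraries did not fall into those sets. Their ratio of Dbp to Arntl was 1.84, 2.95, 1.37, 1.70, 0.733 and 1.22 in the order given above. The 2-month KO library was highest and CRIC WT lowest, while 6-month KO lay above 6-month WT. The ratio of Per3 to Clock was lowest in the 2 CRIC libraries in both classes, at 0.697 and 0.400 in keratocyte-like cells and 0.231 and 0.239 in epithelial-like cells. In the 4 cornea libraries it was 0.832 to 1.43 and 0.431 to 0.534.

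**Figure D3:**
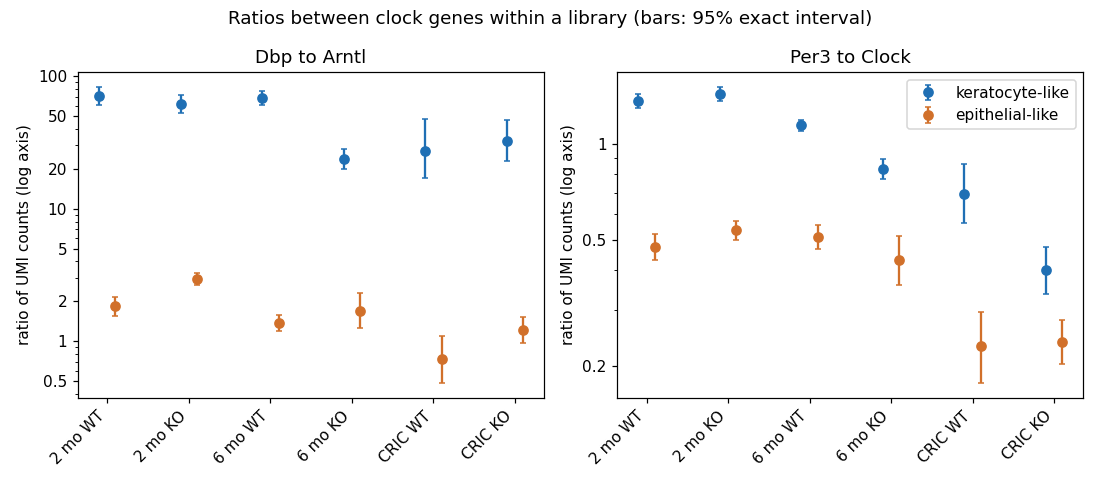
Ratio of Dbp to Arntl and of Per3 to Clock UMIs (log axes) in keratocyte-like and epithelial-like cells of each library, with 95% exact intervals. The keratocyte-like Dbp to Arntl ratio is 61.5 to 71.2 in 3 libraries and 23.7 to 32.4 in the other 3, and the epithelial-like ratio stays between 0.733 and 2.95.

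Single libraries can be set side by side, with counting intervals but no replicate check. In keratocyte-like cells of 6-month cornea the KO to WT ratio was 1.90 for Arntl (95% exact interval 1.54 to 2.33) and 0.661 for Dbp (0.637 to 0.685). These were the 2 of 10 members past 1.5-fold, a share near the 18.7% of all genes. Without the cluster led by Saa3, Chil1 and Mmp3, Arntl alone passed (1.58, 1.23 to 2.02), Dbp stood at 0.719 (0.690 to 0.749), and 17.2% of all genes passed. With that cluster, Nr1d1, Nr1d2, Clock and Cry2 had ratios of 1.25 to 1.36 and Cry1 of 0.681. At 2 months no member passed 1.5-fold between KO and WT, beside 1.88% of all genes. Nr1d1 came nearest, at 0.703 (0.674 to 0.734).

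Dbp was lower in 6-month KO than in 6-month WT in each of the 4 deeper keratocyte-like clusters that all 6 libraries share. Arntl was not higher in 6-month KO in all of them. Dbp stood at 315 CPM in 6-month WT and 226 CPM in 6-month KO in the cluster led by Meg3 and Mfap4, at 363 and 249 CPM in the one led by Tnnc1 and Dpp4, at 394 and 238 CPM in the one led by Gpha2 and Crabp1, and at 317 and 274 CPM in the one led by Car3 and Klra8. The 95% exact intervals of WT and KO did not overlap in any of these clusters. The clusters are parts of the same WT library and the same KO library, so they are not replicates. The share of all genes with intervals apart in each cluster was not computed. Arntl, on 6 to 96 UMIs per value, stood at 5.21 and 7.72, 7.82 and 6.58, 2.40 and 9.17, and 3.67 and 5.80 CPM in the same order. Its intervals were apart only in the cluster led by Gpha2, and in the cluster led by Tnnc1 the KO value was the lower one. In the shallow clusters led by Gm26917 and Lars2 the KO level of Dbp was the higher one, at 217 against 202 CPM and 253 against 223 CPM, with overlapping intervals. The Saa3, Chil1 and Mmp3 cluster of the 6-month KO library had 174 CPM of Dbp and 13.2 CPM of Arntl. Without that cluster, the 6-month KO keratocyte-like levels were 242 CPM for Dbp and 7.83 CPM for Arntl.

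Between ages, Nr1d1 in keratocyte-like cells was 1.45 times higher in the 6-month than in the 2-month WT library (1.40 to 1.495) and 2.58 times higher in the KO pair (2.48 to 2.70). No other member reached 1.5-fold between the WT libraries, nor did Nr1d1, beside 5.5% of all genes. In the KO pair 5 of 10 members passed 1.5-fold, beside 19.9% of all genes: Nr1d1, Arntl (1.77) and Nr1d2 (1.55) upward, Cry1 (0.501) and Per2 (0.638) downward. Without the cluster led by Saa3, Chil1 and Mmp3, 3 of 10 passed, beside 19.3% of all genes: Nr1d1 (2.56), Nr1d2 (1.60) and Cry1 (0.600), while Arntl (1.48) and Per2 (0.775) did not. When the 2-month KO library was restricted to its cells with Y-linked UMIs and no Xist, or to those with Xist and no Y-linked UMIs, the Nr1d1 ratio was 2.69 and 2.67, Cry1 0.504 and 0.484, Nr1d2 1.75 and 1.48, Arntl 1.499 and 2.00, and Per2 0.849 and 0.592. Between the CRIC libraries 3 of 10 members passed, the 3 Per genes, all lower in KO, a share near the 30.8% of all genes. Per2 stood at 0.305 times (0.149 to 0.613) and Per3 at 0.516 times (0.415 to 0.642) the WT level, and the Per1 interval included 1.

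In epithelial-like cells Per1 passed 1.5-fold in each of the 5 library pairs compared. Per1 responds within minutes to hormones and cell stress besides its role in the loop. It stood at 4.16, 13.2, 12.8, 7.93, 4.49 and 6.96 CPM. The 2-month WT and CRIC WT libraries were low, and 2-month KO and 6-month WT were high. At 2 months the KO to WT ratio was 3.18 (95% exact interval 2.26 to 4.58), and Per1 and Dbp (1.55) were the 2 of 10 members past 1.5-fold, beside 3.94% of all genes. With the KO library restricted to its cells with Y-linked UMIs or with Xist alone, the ratio was 2.01 (1.21 to 3.30) and 4.14 (2.90 to 6.03) for Per1, and 1.65 and 1.39 for Dbp. Per1 was also the 1 member past 1.5-fold between the WT ages (3.08, beside 17.5% of all genes), and Arntl (1.42) and Nr1d1 (1.42) followed. The summed level of 14 immediate early genes, which respond to dissociation as well as to signals, was 3296, 4631, 6422, 4397, 3820 and 4239 CPM in these cells, lowest in 2-month WT and highest in 6-month WT. Its part in the Per1 values was not tested.

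The other single-library pairs of epithelial-like cells each had 3 of 10 members past 1.5-fold. Between the 6-month cornea libraries Per1, Cry2 and Nr1d2 were lower in KO, beside 18.5% of all genes. Between the KO ages Per1, Cry2 and Dbp were lower at 6 months, beside 22.5%. Between the CRIC libraries the ratios were 1.55 for Per1, 1.59 for Cry2 and 0.438 for Per2, beside 27.8%, and all 3 intervals included 1. With 10 genes, a count of 3 is close to each of these backgrounds.

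None of the 10 clock genes passed edgeR's test for age or genotype in the 4 cornea libraries, where both factors were fitted with 1 residual degree of freedom. For age in keratocyte-like cells 0 of 10 were called, beside 1.64% of all genes, and 3 had an unadjusted p under 0.05. These were Cry1 (-0.77 ± 0.25 log2, edgeR adjusted p = 0.0854), Nr1d1 (0.82 ± 0.30, adjusted p = 0.207) and Per2 (-0.60 ± 0.23, adjusted p = 0.281). DESeq2 also gave 3, with Dbp in place of Per2. For genotype in keratocyte-like cells 0 of 10 were called, beside 0.318% of all genes, and 0 had an unadjusted p under 0.05 (1 with DESeq2, Dbp). Without the library labelled 2-month KO, 0 were called and 5 had an unadjusted p under 0.05: Arntl, Cry1, Dbp, Per1 and Per2. In simulated counts of this size, 24 of 100 genes changed 2-fold and 100 of 100 changed 4-fold between ages were recovered. The simulated spread was set beforehand and not estimated from these libraries, and only genes above 10 CPM were changed. Keratocyte-like Arntl, at 4.93 to 9.69 CPM, lies below that level. The recovery therefore does not measure how well changes in the members would be found.

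The age count moved with the libraries and cells that entered. Fits without a library hold age alone, and a lone library of an age is assumed to vary like the 2 of the other age. Without 6-month WT the fit compared 6-month KO with both 2-month libraries and called 7 of 10, beside 20.8% of all genes: Dbp (-0.90, edgeR adjusted p = 0.000572), Per1, Per2, Per3 and Cry1 lower, and Nr1d1 (0.90) and Nr1d2 higher. Without 6-month KO it called Nr1d1 alone (0.72, adjusted p = 0.0142), beside 4.19%, and without the library labelled 2-month KO it called 0, beside 0.674%. Cry1 and Nr1d1 were also called after leaving out clusters of low depth (-0.84 and 0.86, adjusted p = 0.00532 and 0.0112), beside 3.15%.

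In epithelial-like cells 0 of 10 clock genes were called for age, beside 8.47% of all genes, and 0 for genotype, beside 0.0171%. With DESeq2 0 were called and 0 had an unadjusted p under 0.05 for either factor. With edgeR, Nr1d1 had an unadjusted p under 0.05 for age (0.36 ± 0.17 log2, edgeR adjusted p = 0.245) and Per1 for genotype (0.68 ± 0.33, adjusted p = 0.964). Without the library labelled 2-month KO, Per1 was called higher at 6 months (1.41, adjusted p = 0.0194). Without 6-month KO, Arntl was called higher (0.50, adjusted p = 0.0258). Of the immediate early genes 9 of 14 were called for age in these cells, 8 higher and 1 lower, and their part in the clock genes' values was not tested.

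Differences between the classes in their response were tested as interactions in the 4 cornea libraries. For age, 0 of 10 clock genes were called, beside 1.06% of all genes, with an unadjusted p under 0.05 for Per1 (-0.80 ± 0.37 log2 in keratocyte-like minus epithelial-like cells, edgeR adjusted p = 0.526; with DESeq2, 0 such genes). For genotype, 0 of 10 were called, beside 0.119%. Dbp had an unadjusted p of 0.0208 there (-0.77 ± 0.33, edgeR adjusted p = 1), and Arntl differed by 0.57 ± 0.34 (adjusted p = 1). These fits averaged genotype over the 2 ages and left out the CRIC libraries. The different order of the Dbp to Arntl ratios in the 2 classes, which involves single libraries, was therefore not tested.

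The 4 genes with a seed match for a microRNA of the cluster had small genotype estimates in keratocyte-like cells. Per2 (miR-96-5p) differed by -0.09 ± 0.23 log2, Cry2 (miR-183-5p) by 0.14 ± 0.23, Clock (miR-182-5p, 2 sites) by 0.08 ± 0.26 and Nr1d2 (miR-96-5p) by 0.12 ± 0.27. None passed the test (edgeR adjusted p = 1 for each). In epithelial-like cells the estimates were 0.11, 0.00, 0.02 and -0.27 in the same order, and none passed either. In immune-like cells 2 of the 10 genes had enough counts to be tested over all 6 libraries, Clock (-0.11 ± 0.47) and Nr1d2 (0.44 ± 0.54). Neither was called, beside 0.941% of all genes, and 0 of the 2 had an unadjusted p under 0.05 with edgeR or DESeq2. Whether corneal cells of these libraries express the 3 microRNAs was not measured.

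Immune-like cells had lower levels of most clock genes than epithelial-like and keratocyte-like cells, with Per1 as the exception. In edgeR's test 8 of 10 genes differed from epithelial-like cells, beside 58.2% of all genes, 7 lower (31.8% of all genes) and Per1 higher (26.4%). A log2 difference beyond 2 was called for 6 of 10, beside 28.1%. Against keratocyte-like cells 8 of 10 differed, beside 59.8%, again 7 lower (32.6% of all genes) and Per1 higher (27.2%). There 4 of 10 were called beyond 2, beside 28.7%. From keratocyte-like cells Dbp differed by -4.96 ± 0.28 log2 (edgeR adjusted p = 1.16e-14) and Nr1d1 by -4.63 ± 0.33. The immune-like levels of Dbp and Nr1d1 rest on 40 and 42 UMIs over all libraries. Per3, Cry2, Arntl and Clock, 4 of the 10 members, lay below the epithelial-like range in every library, as did 22.2% of all genes. For Arntl the immune-like count was 0 in 2-month WT, 2-month KO and 6-month WT, which allows up to 13.3, 13.8 and 8.36 CPM. Cry2 rests on 8 UMIs over all libraries, with a count of 0 in 6-month WT. That 0 allows up to 8.36 CPM, above the lowest epithelial-like Cry2 level (5.98 CPM, CRIC WT), so the order is not settled for Cry2.

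Per1 in immune-like cells stood at 22.2, 50.6, 25.1, 7.59, 13.2 and 17.3 CPM, on 5, 11, 9, 3, 21 and 82 UMIs. It was above the epithelial-like level in 5 of 6 libraries and highest in 2-month KO, where 11 UMIs were counted. It was higher than in epithelial-like cells by 1.49 ± 0.31 log2 (edgeR adjusted p = 0.000163) and passed under every alternative run. Against keratocyte-like cells the difference of 0.72 ± 0.30 (adjusted p = 0.0415) did not pass under 9 of the 15 alternatives, among them those without 2-month KO (0.59), 6-month WT (0.72), CRIC WT (0.71) or CRIC KO (0.53).

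Free RNA in the droplets, read from barcodes of at most 100 UMIs, held 8.82 to 25.4 CPM of Per1 and 46.0 to 216 CPM of Dbp. That range spans all libraries, and the immune-like Per1 level lay above all of it in 2-month KO. Set against free RNA of its own library, the level was higher in every library but 6-month KO, on the few UMIs given above. The ratio of Dbp to Per1 UMIs was 0.195 to 1 in immune-like cells, 5.21 to 17.3 in free RNA, 13.0 to 32.4 in keratocyte-like and 3.74 to 10.9 in epithelial-like cells. The part of free RNA in the immune-like values was not tested. Cells with over 2% of their UMIs from another lineage's markers, 5.37% to 24.3% of immune-like cells, were left out. With them kept, Dbp (0.55, edgeR adjusted p = 0.0556) and Nr1d1 (0.29, adjusted p = 0.364) were no longer below epithelial-like cells. Keratocyte markers in the cells that remained reached 0.124% to 1.66% of their own class's level, and their part in the immune-like values was not tested.

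Superficial epithelial-like cells held Nr1d1 and little else of the clock. Nr1d1 stood at 53.5, 40.5, 51.2, 28.9, 64.7 and 30.9 CPM. It was above the epithelial-like level in 5 of 6 libraries and just below it in CRIC KO, and the 3 KO libraries lay below the 3 WT libraries without overlap. Of all genes at 3 CPM or more in this class 3.76% had that order, among them 1 of the 3 members that reached that level, and genotype was not tested in this class. Without 2-month KO or without 6-month KO the order holds by construction, and 18.8% and 5.94% of all genes had it. The other 9 members were at most 6.65 CPM in any library, Dbp at 6.65, 5.45, 5.05, 2.46, 0 and 2.09 CPM. Dbp counts were 0 in CRIC WT, which allows up to 2.81 CPM.

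The class is deep rather than sparse, with a median of 8508 to 21348 UMIs per cell, and 7 superficial marker genes together stood at 107725 to 134983 CPM. The ratio of Dbp to Nr1d1 was 0 to 0.135 in superficial cells, against 0.482 to 1.89 in free RNA, 0.717 to 2.72 in keratocyte-like and 0.603 to 2.71 in epithelial-like cells. Free RNA held 61.7 to 330 CPM of Nr1d1, above the superficial level in 5 of 6 libraries, and its part in the superficial values was not tested. The class was left out of the tests, and its difference from epithelial-like cells was not tested.

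**Figure D4:**
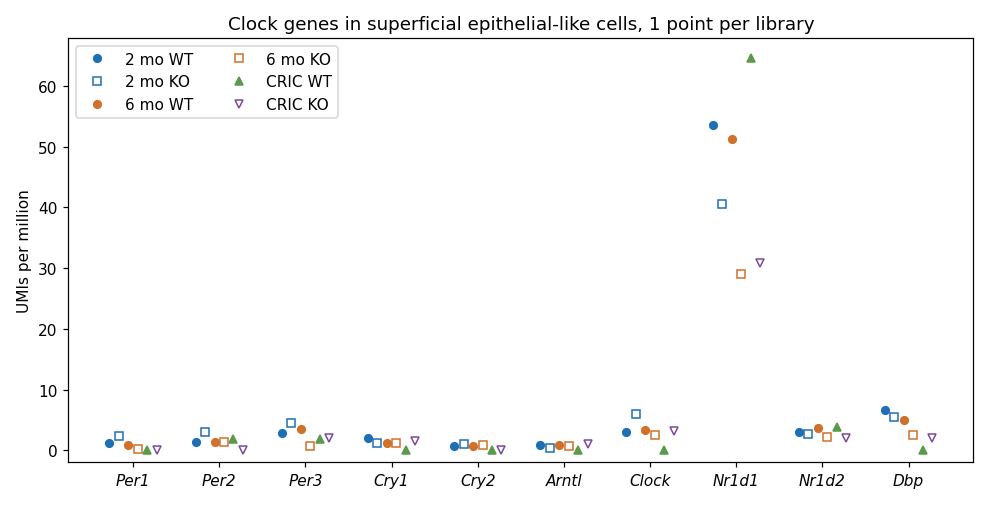
CPM of the 10 clock genes in superficial epithelial-like cells, 1 point per library. Nr1d1 lies between 28.9 and 64.7, and every other gene is at or below 6.65 in every library.

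Epithelial-like clusters differed among themselves. In the cluster led by Krt14, a keratin of basal cells, Arntl stood at 25.8, 28.0, 33.7, 24.2, 29.2 and 36.4 CPM. In the cluster led by Rbp2 and Muc15 it stood at 14.3, 13.8, 19.95, 10.1, 21.0 and 16.8 CPM, below the Krt14-led cluster of the same library in all 6. Nr1d1 had the reverse order, with 12.6 to 24.3 CPM in the Krt14-led cluster and 29.0 to 40.2 CPM in the other. These clusters were defined without the clock genes, and the difference was not tested. The share of all genes that kept the same order in all 6 libraries was not computed, and other members are not given. In a cluster of low depth led by Mki67 and Itgb4, Arntl reached 62.8 to 87.6 CPM.

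Shallow clusters also differed among keratocyte-like cells. In those led by Gm26917 and Lars2, Nr1d1 was 185 to 459 CPM, against 106 to 345 CPM in the deeper clusters led by Meg3, by Tnnc1, by Gpha2 and by Car3 and Klra8. The share of these shallow clusters differs between libraries. Within the cluster led by Meg3, Nr1d1 was 163, 115, 262, 265, 241 and 194 CPM, lowest in both 2-month libraries.

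Other genes of the clock pathway were taken from a list of 23, of which 22 could be tested. Between keratocyte-like and epithelial-like cells 20 of 22 were called, 14 higher and 6 lower, beside 68.3% of all genes (34.9% higher and 33.4% lower), with a median log2 difference of 0.84 against 0.57 for the 10 clock genes and 0.01 for all genes. Bhlhe41, which encodes the repressor DEC2, was higher in keratocyte-like cells by 4.34 ± 0.22 log2 (90.7 to 160 against 2.27 to 7.38 CPM). Klf9, a glucocorticoid- and clock-driven factor, was higher by 4.46 ± 0.23 (185 to 267 against 4.99 to 13.3 CPM). Rora, an activator of Arntl, was higher by 1.40 ± 0.22.

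The D-box factors related to Dbp split between the classes. Tef was higher in keratocyte-like cells by 1.33 ± 0.15 log2 (78.2 to 169 against 24.1 to 62.2 CPM), as Dbp was. Hlf was lower there (-1.86 ± 0.20), with 57.9 to 121 CPM in keratocyte-like and 189 to 410 CPM in epithelial-like cells. Nfil3, which encodes the repressor that competes for the same sites, did not pass between these classes (-0.68 ± 0.39, edgeR adjusted p = 0.125). It was higher in immune-like than in epithelial-like cells by 4.92 ± 0.41 log2 (edgeR adjusted p = 3.91e-11), with 8.87, 13.8, 25.1, 45.6, 10.1 and 45.4 CPM against at most 1.72 CPM. Tef (-1.37 ± 0.21) and Hlf (-5.41 ± 0.31) were both lower there.

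Among the further genes called higher in keratocyte-like cells were Timeless (2.49), Ciart (1.95), Btrc (1.45), Fbxl21 (1.24), Npas2 (1.23), Nampt (1.21), Csnk1e (0.67), Noct (0.62) and Bhlhe40 (0.52), in log2. Among those called lower were Usp2 (-1.90), Arntl2 (-1.53), Klf10 (-1.10) and Csnk1d (-0.56). Noct lost its call under 9 alternatives. Against epithelial-like cells 14 of 22 were called in immune-like cells, 8 higher and 6 lower, a share near the 58.2% of all genes (26.4% higher and 31.8% lower). Npas2 had 0 UMIs in immune-like cells of all 6 libraries, which allows 0.634 to 13.8 CPM per library, and no fold is given for it. For age and genotype, 2 genes of the list were called, both for age in epithelial-like cells: Usp2 (-1.62 ± 0.40, edgeR adjusted p = 0.00722) and Klf10 (1.06 ± 0.23, adjusted p = 0.00237). Neither passed with DESeq2 or without the library labelled 2-month KO.

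The library labelled 2-month KO could be split by the sex-linked UMIs of its cells, which use none of the clock genes. In keratocyte-like cells, 973 cells had Y-linked UMIs and no Xist, and 5138 had Xist and no Y-linked UMIs. Dbp stood at 392 CPM in the former (95% exact interval 374 to 411) and 299 CPM in the latter (292 to 307), and the 2-month WT library had 397 CPM. Per1 was 18.7 against 25.8 CPM, Per2 16.0 against 22.9 CPM and Nr1d2 86.8 against 102 CPM, while Nr1d1 was 115 and 116 CPM. The part of the 2-month KO library with Xist was thus the lower one for Dbp and the higher one for Per1, Per2 and Nr1d2. In each case the intervals did not overlap, and the share of all genes with such intervals was not computed. Cells with Y-linked UMIs had a median of 4280 UMIs and cells with Xist 3708.

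In epithelial-like cells of that library Per1 was 8.35 CPM in 615 cells with Y-linked UMIs and 17.2 CPM in 1809 cells with Xist, so the higher Per1 of this library lay more in the latter. Of a list of 10 glucocorticoid-responsive genes, 9 were higher in the cells with Xist among keratocyte-like cells, with intervals apart, and 1 had overlapping intervals. Among epithelial-like cells 5 were higher, 1 lower (Cdkn1a) and 4 overlapped. The share of all genes with intervals apart between these parts was not computed. The summed list stood at 510 against 1304 CPM in keratocyte-like and 2460 against 2707 CPM in epithelial-like cells. Tsc22d3 was 196 against 613 CPM and Fkbp5 0.231 against 18.2 CPM in keratocyte-like cells, and Fkbp5 was 4.04 against 19.8 CPM in epithelial-like cells. Fkbp5 in the keratocyte-like cells with Y-linked UMIs rests on 1 UMI. The parts hold cells of more than 1 animal and may differ in more than sex, and the part of glucocorticoid response in the Per1 values was not tested.

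**Figure D5:**
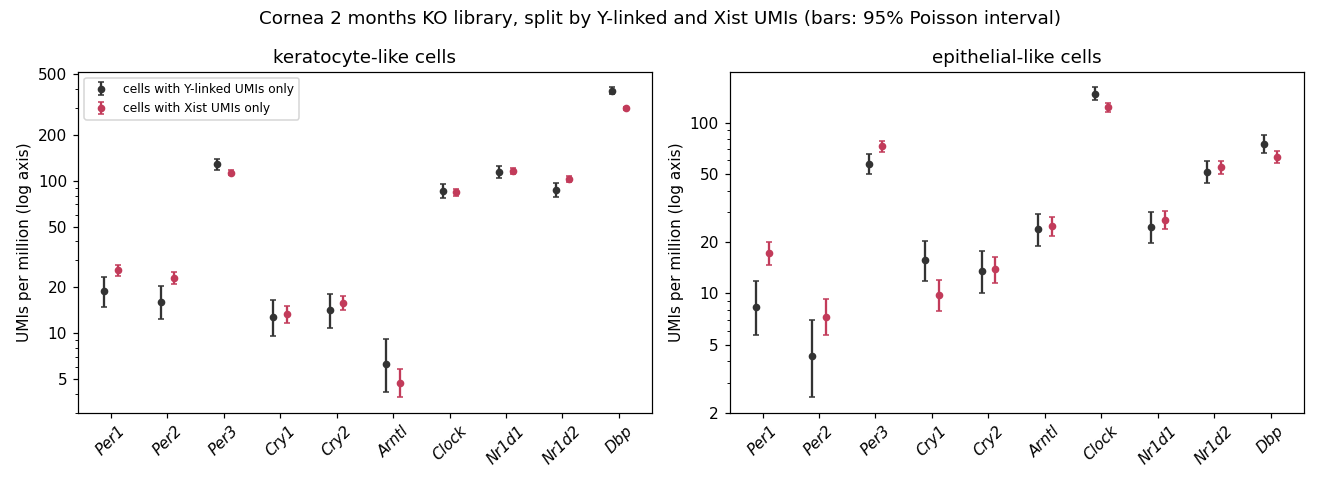
CPM (log axis) of the 10 clock genes in the library labelled 2-month KO, in cells with Y-linked UMIs only and cells with Xist UMIs only, with 95% exact Poisson intervals. In keratocyte-like cells Dbp is 392 against 299 and Nr1d1 115 against 116, and Per1 is lower in cells with Y-linked UMIs in both classes.

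The genes whose levels followed those of Dbp and Arntl most closely were ranked over 8 values, the keratocyte-like and epithelial-like sums of the 4 cornea libraries centred within each class. Only 31 genes had enough level and range to be ranked. For Dbp they were Coq2 (Pearson r 0.79), Gatad1 (0.79), Igfbp2 (0.72), Angptl7 (0.69) and Zfp771 (0.69). For Arntl they were Igfbp5 (0.90), Runx1 (0.89), Gpha2 (0.85), St6galnac2 (0.82) and Fosb (0.81). The 8 values share libraries, depth and free RNA, so these are descriptions only.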

How the data were processed

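Single-cell 3′ gene expression (10x Genomics, kit version 2 per the labels' protocols) was read in 6 mouse cornea libraries, each the only one of its group. The deposited matrices hold raw UMI counts per gene and barcode, not normalized and not filtered to cells. The authors ran Cell Ranger on mm10, in version 6.0.1 per the file headers and 2.1.1 per the submitters' processing notes. The sources used here name no aligner settings and no annotation release.

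Barcodes with at least 500 UMIs, at least 250 genes and at most 20% mitochondrial UMIs were kept where they differed from free RNA in a multinomial test (adjusted p under 0.01). Cells were clustered by Leiden (scanpy 1.11.5, leidenalg 0.10.2) on 2000 variable genes without the 10 clock genes. Clusters were named from marker lists, and of the 18 clusters those with markers of another class (1073 cells) stayed unnamed. No doublet caller was run. Instead 962 cells with over 2% of UMIs from another lineage's markers were left out, so doublets within a class remain. Counts of a class's cells were added up within each library and compared with edgeR 4.0.16 in R 4.3.3. The settings were TMM, filterByExpr and Benjamini-Hochberg over all genes, with adjusted p under 0.05. DESeq2 1.42.0 was an alternative, and the edgeR test was run on simulated data. Where 1 of the 4 cornea libraries was left out, the tested factor was fitted alone. SE is the log2 difference divided by the square root of F. Intervals are exact, at 95%, and show counting error alone. For a count of 0 the limit is 3 counts.

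Alternatives were other scaling, no count filter, DESeq2, a minimum of 1000 UMIs, another Leiden seed, other sets of libraries and leaving out each library. Keeping mixed cells, dropping clusters of low depth, dropping the cluster mostly of the 6-month KO library, and splitting the 2-month KO library by its sex-linked UMIs were added after seeing the data. Named genes are the 10 members, the called genes and 9 fixed others of a clock pathway list (some are not reported here), and the 5 genes most correlated with Dbp and with Arntl. The members, lists and markers were chosen with earlier results of these data known. No gene's row is blank, and libraries were compared by their total UMIs per class. Lists of glucocorticoid-responsive and heat-shock genes were given as levels only. Summed over the list, heat-shock genes stood at 4305 to 5719 CPM and glucocorticoid-responsive genes at 2001 to 4472 CPM in epithelial-like cells.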

Additional observations from a re-analysis of the deposited data

Results flagged for a closer look

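The library labelled 2-month KO held 3077 UMIs of Y-linked genes, although every library is labelled female, and the other 5 libraries held 0 to 2. The signal lies outside the clock genes and was looked at because it touches every comparison that uses this library. Of its cells 1895 had Y-linked UMIs and no Xist, 7555 had Xist and no Y-linked UMIs, and 225 had both. Keratocyte-like Dbp was 392 CPM in the former cells and 299 CPM in the latter, and epithelial-like Per1 was 8.35 and 17.2 CPM. Without this library the same 7 of the 10 clock genes were called between keratocyte-like and epithelial-like cells, beside 63.6% of all genes, and none was called for genotype.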

How the results depend on the processing

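Counts were recomputed under 123 alternatives, and 116 stayed within 1.5 times the reported count. Of these alternatives 1 was for the count of levels given below, and the rest were for counts of clock genes called. Where the reported count was 0, as for age, genotype and the interactions, staying within that limit means staying at 0. The exceptions were all counts for age. In keratocyte-like cells the count of 0 became 1 with at least 1000 UMIs per cell (Cry1), 1 with another Leiden seed (Cry1) and 2 without clusters of low depth (Cry1 and Nr1d1), and it ran from 0 to 7 when each library was left out. In epithelial-like cells it ran from 0 to 1. The cause was not tested, but fits without a library compare fewer samples with the tested factor alone. Leaving out each library gave 6 to 9 calls between keratocyte-like and epithelial-like cells, 7 to 9 between immune-like and epithelial-like, 7 to 8 between immune-like and keratocyte-like, and 0 for genotype in each class. Of 780 alternatives for single genes 727 kept direction and call, 29 lost and 22 gained it, and 2 reversed: with mixed cells kept, Dbp (0.55) and Nr1d1 (0.29) in immune-like minus epithelial-like cells. Per library and class, 230 of 240 levels stayed within their interval with at least 1000 UMIs per cell. No paired analysis by replicate number was possible because each group holds 1 library. With WT and KO of the same age and preparation as a block over all 6 libraries, genotype called 0 of 10 clock genes in keratocyte-like cells (0 of 14132 genes) and 0 of 10 in epithelial-like cells (8 of 11576). Depth limits the immune-like values most, where the 4 cornea libraries gave 217353 to 395100 UMIs per class.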
